A study of Homo sapiens with 6 samples.

Results

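The nuclear genes for oxidative phosphorylation encode the subunits of the respiratory chain and of ATP synthase that the cell nucleus supplies to the inner mitochondrial membrane. Genes were taken by symbol: those beginning NDUFA, NDUFB, NDUFC, NDUFS or NDUFV (complex I), SDHA to SDHD (complex II), those beginning UQCR (complex III), those beginning COX4 to COX8 (complex IV) and those beginning ATP5 (complex V), with NDUFAF assembly factors, pseudogenes and antisense RNAs left out. RefSeq lists 86 protein-coding genes with such symbols. Of these, 75 had a transcript cluster of their own on the array, out of 22376 genes measured in all: 32 of complex I, 3 of complex II, 7 of complex III, 15 of complex IV and 18 of complex V. A cluster gathers the probes of a gene into 1 value per array. Another 8 (NDUFA13, NDUFB8, NDUFC2, NDUFS8, UQCRH, COX6B2, COX7C and ATP5MK) shared a cluster with a second gene symbol and were not counted, and the remaining 3 were not analysed here.

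The arrays hold total RNA from subclones of DLD-1, a human colorectal adenocarcinoma cell line in long use, cultured without treatment in a collagen type I matrix of 1 mg/ml for 96 h. Of the 6 arrays, 3 are labelled Δα-Cat and 3 α-Cat, with replicate numbers 1 to 3 in each group. The labels do not say how the subpopulations were obtained, how many clones each holds, or whether replicates were grown as separate cultures. The p-values therefore measure the spread between these arrays only, which may be technical. CTNNA1, the gene of αE-catenin, read 6.55, 6.52 and 6.41 on the Δα-Cat arrays and 7.79, 7.68 and 7.71 on the α-Cat arrays (log2, replicates 1 to 3), in the direction the names give. All 9 markers of colorectal epithelium examined lay above 4.43, the 95th percentile of olfactory receptor genes, which served as a guide to background. Among markers of fibroblasts, leukocytes and endothelium, 3 of 7, 2 of 5 and 2 of 5 lay below it and the others above. Their highest mean was 6.15 (COL1A1), and the lowest mean of an epithelial marker was 5.58. None of the 4 marker lists held a called gene, where 0.626% of all genes were called. In 5 of the 9 epithelial markers the groups did not overlap (3 higher and 2 lower in Δα-Cat), against 21.3% of all genes. Leukocyte markers differed by -0.64 to 0.15 (log2, Δα-Cat minus α-Cat).

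Oxidative phosphorylation passes electrons from NADH through complex I, and from succinate through complex II, to coenzyme Q, then through complex III and cytochrome c to oxygen at complex IV. The protons moved on the way drive complex V, a rotary enzyme that makes ATP. Most subunits are encoded in the nucleus, while the mitochondrial genome encodes a small catalytic set, so the levels of nuclear transcripts describe one of the sources of these enzymes. Nuclear respiratory factor 1 (NRF1), GABPA and YY1 are transcription factors known for sites in the promoters of many of these genes.

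The promoters of 4 members are shown because they carry the letters of an NRF1 motif and because these members differed in opposite directions or hardly at all between the groups. Each runs from 120 bases before to 20 bases after the RefSeq start of transcription in GRCh38.p14, 5′ to 3′ along the gene, with the motif in capitals. ATP5F1C lies at chr10:7788057-7788196 on the plus strand, NDUFA8 at chr9:122159760-122159899 on the minus strand, UQCRC1 at chr3:48609627-48609766 on the minus strand and SDHD at chr11:112086753-112086892 on the plus strand.
ATP5F1C: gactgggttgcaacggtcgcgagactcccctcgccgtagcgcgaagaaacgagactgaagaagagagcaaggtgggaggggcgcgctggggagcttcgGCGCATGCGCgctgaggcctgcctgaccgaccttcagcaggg
NDUFA8: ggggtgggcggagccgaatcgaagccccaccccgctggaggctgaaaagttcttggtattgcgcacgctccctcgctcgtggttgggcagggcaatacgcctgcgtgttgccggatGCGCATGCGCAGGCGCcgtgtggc
UQCRC1: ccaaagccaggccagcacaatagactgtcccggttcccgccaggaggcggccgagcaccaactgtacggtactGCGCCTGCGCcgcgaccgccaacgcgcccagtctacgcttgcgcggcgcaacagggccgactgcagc
SDHD: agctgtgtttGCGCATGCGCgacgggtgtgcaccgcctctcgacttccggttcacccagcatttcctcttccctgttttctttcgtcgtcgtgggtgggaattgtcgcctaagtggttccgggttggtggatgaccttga
The NRF1 letters searched were GCGC and TGCGC with any base between them or, for the other strand, GCGCA and GCGC with any base between them. The 2 forms overlap where the site is a palindrome, as in ATP5F1C and SDHD. In NDUFA8 the capitals hold 2 overlapping matches, which begin at bases -4 and 3 relative to the start of transcription. Of the 61 members with a 300-base RefSeq promoter (250 bases before to 50 after the start), 16 held a match, 26.2%, against 8.58% of 15843 protein-coding promoters. The core CCGGAAG of GABPA, on either strand, was in 26.2% of the members' promoters and in 14.2% of all, and the YY1 letters, AANATGG followed at once by CGNC, on either strand, in 13.1% and 3.28%. These matches are a description of the sequence and not of binding. The median log2 difference between the groups was -0.04 for members with the NRF1 letters and -0.05 for those without. The palindrome in capitals in ATP5F1C was also in the promoters of NDUFA8, SDHD and NDUFB4, and in 1.75% of all promoters. The differences of these 4 genes were 0.40 (ATP5F1C), -0.20 (NDUFA8), 0.06 (SDHD) and -0.00 (NDUFB4).

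**Figure D1:**
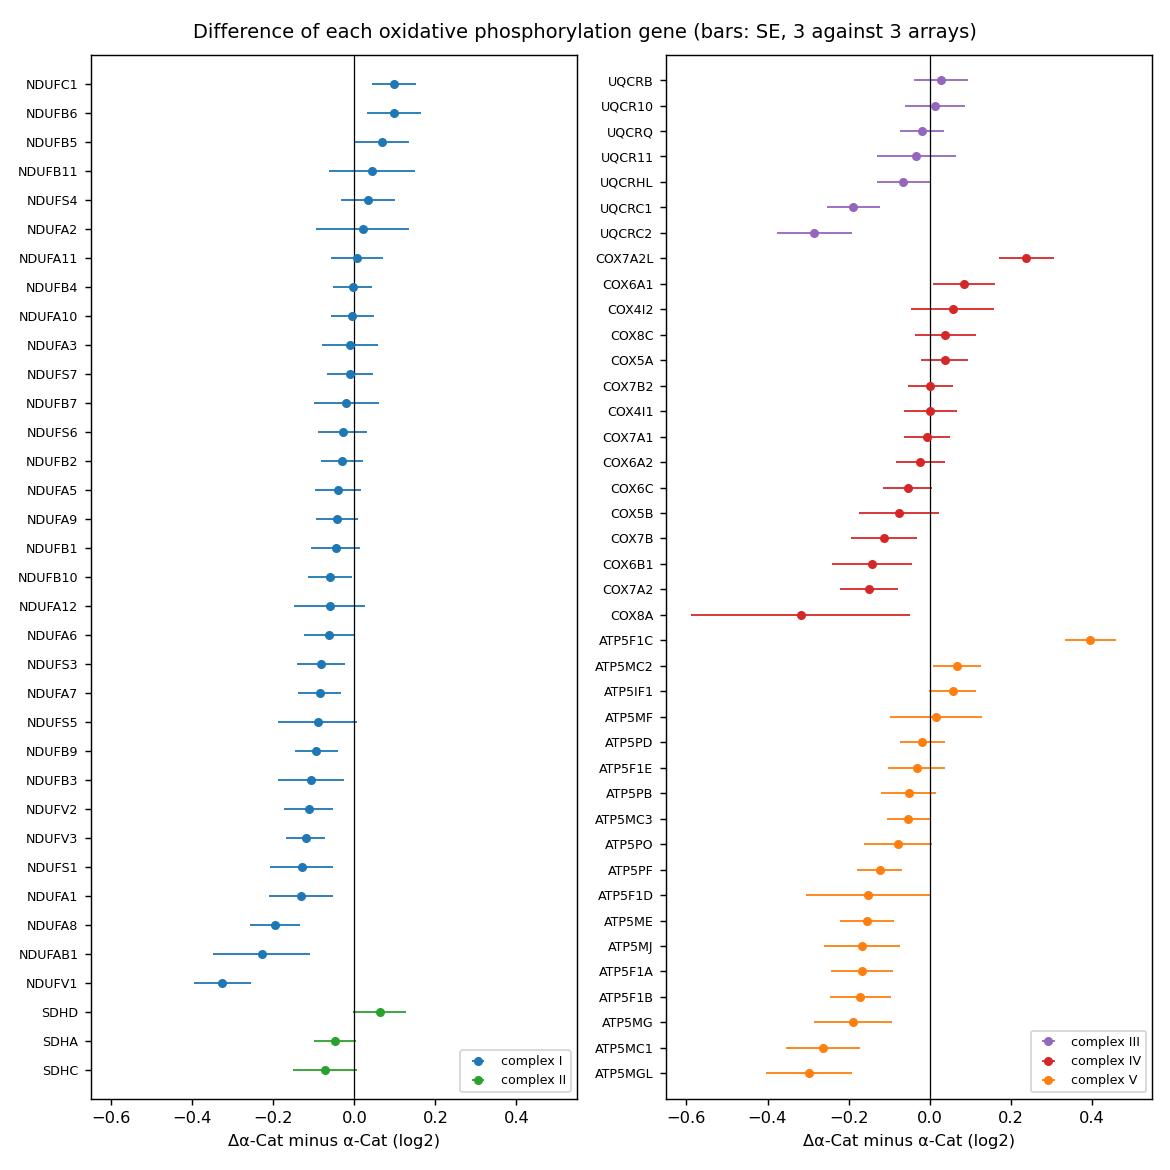
The log2 difference, Δα-Cat minus α-Cat, of each of the 75 genes (x axis) with the genes on the y axis, ordered within each complex; points are fitted differences over 3 against 3 arrays and bars the standard error. Most points lie within 0.1 of 0 and 54 of 75 lie below it, with ATP5F1C at 0.40 on the far right and NDUFV1 at -0.33 on the far left.

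Differences are given as Δα-Cat minus α-Cat on the log2 scale of the deposited values, with the standard error (SE) of a limma fit over all 65526 clusters; a gene was called at a limma adjusted p under 0.05. None of the 75 members was called, where 0.342% of all clusters and 0.626% of all genes were, 0.371% of genes higher and 0.255% lower. Without adjustment, 9 members had a p under 0.05, 2 higher and 7 lower. The lower members were 9.33% of the 75, against 6.16% of all genes, and the higher ones 2.67%, against 6.96%. In either direction the share over all genes was 13.1%. Among genes above the olfactory receptor percentile, the lower share was 10.1% of members against 8.07% of all such genes. The higher share was 2.9% against 8.74%. The differences ran from -0.33 (NDUFV1) to 0.40 (ATP5F1C), and 50 members lay within 0.1 of 0, as did 15474 of all 22376 genes. The members' 95% confidence intervals give bounds for the spread between these arrays only. In 74 members the interval lay inside a 1.5-fold change in either direction, and COX8A was the exception. The same held for 21435 of the 22376 genes.

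As a group the members lay slightly lower in Δα-Cat. Their median difference was -0.05, against 0.00 over all genes, and the sign was negative in 54 of 75, 72%, against 50.2% of all genes and 51.6% of genes above the olfactory receptor percentile. Without α-Cat replicate 1 the members' median was -0.02. The Δα-Cat arrays lay wholly below the α-Cat arrays in 11 members, 14.7% against 10.0% of all genes, and wholly above them in 3, 4% against 11.3% of all genes. Among genes above the olfactory receptor percentile, they lay wholly below in 15.9% of members and 12.3% of all such genes. They lay wholly above in 4.35% and 13.2%. In either direction, 14 members had groups that did not overlap, against 21.3% of all genes. These counts are a description, and no test was made of the set. Because RNA was taken from whole cultures, fewer cells with a transcript and less of it per cell cannot be told apart.

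Averaged over the 75 members, the log2 value was 7.09, 7.07 and 7.01 on the Δα-Cat arrays and 7.16, 7.11 and 7.06 on the α-Cat arrays, for replicates 1 to 3. The groups overlapped, since Δα-Cat replicate 1 lay above α-Cat replicate 3. Between arrays of the same number the mean difference was -0.07, -0.05 and -0.05. Each of these was negative, and 28 members were lower in Δα-Cat in all 3 such pairs, while 6 (ATP5F1C, COX7A2L, COX6A1, COX5A, NDUFC1 and ATP5MC2) were higher in all 3. Of all 22376 genes, 4192 were lower in all 3 and 4540 were higher in all 3.

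**Figure D2:**
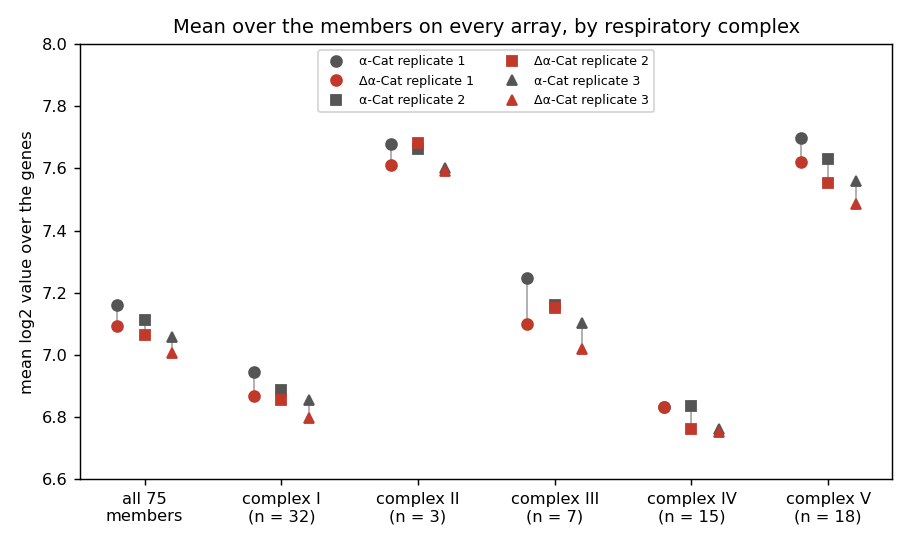
Mean log2 value over the members (y axis) on every array for all 75 members and for each respiratory complex (x axis); grey symbols are α-Cat and red symbols Δα-Cat arrays, the shape gives the replicate number, and grey lines join arrays of the same number. The mean of complex V differed by -0.08, -0.08 and -0.07 in the pairs numbered 1 to 3, and that of complex II by -0.07, 0.02 and -0.01.

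Complex I, the NADH dehydrogenase, had a median difference of -0.04 over its 32 measured subunits, 25 of them with a negative sign. The flavoprotein subunits, which take electrons from NADH at the tip of the matrix arm, all 3 had a negative sign. NDUFV1, the subunit that binds the flavin and NADH (chromosome 11), read 8.28, 8.22 and 8.12 in Δα-Cat and 8.54, 8.62 and 8.44 in α-Cat. Every Δα-Cat array lay below every α-Cat array. The means were 8.21 ± 0.08 and 8.53 ± 0.09 (SD, n = 3 each), a difference of -0.33 (SE 0.07, 95% interval -0.49 to -0.16), or -20.2% on the linear scale. It did not pass over all clusters (limma adjusted p = 0.152), and it did when p-values were adjusted over clusters with a single gene symbol (adjusted p = 0.0464), where 2.94% of all genes were called and 1.30% were called lower.

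NDUFV3, a small accessory flavoprotein subunit, read 6.85, 6.86 and 6.86 in Δα-Cat against 6.99, 6.95 and 6.99 in α-Cat. The groups did not overlap, and the difference of -0.12 (SE 0.05, limma adjusted p = 0.489) was small. NDUFV2, an iron-sulfur protein of the same arm, had a difference of -0.11 and overlapping groups.

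Among the 6 measured NDUFS genes, named for the iron-sulfur fraction of the enzyme, the median difference was -0.06 and no unadjusted p was under 0.05. They ran from -0.13 (NDUFS1, an iron-sulfur protein of the electron path) to 0.03 (NDUFS4). In the α subcomplex, 12 NDUFA genes had a median of -0.05, and 10 had a negative sign. NDUFA8, an accessory subunit that faces the intermembrane space (chromosome 9, promoter above), read 7.53, 7.50 and 7.65 in Δα-Cat and 7.81, 7.72 and 7.74 in α-Cat. Its groups stood apart by less than 0.1, with a difference of -0.20 (SE 0.06, limma adjusted p = 0.35). NDUFAB1, the mitochondrial acyl carrier protein, which is also a subunit of complex I, differed by -0.23, but its SE was 0.12.

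The 10 measured NDUFB genes, of the β subcomplex in the membrane arm, had a median difference of -0.03 and lay between -0.11 and 0.10. NDUFB11, a subunit of this arm, read 8.90, 8.72 and 8.60 in Δα-Cat and 8.82, 8.76 and 8.52 in α-Cat, and the groups overlapped. NDUFB2 and NDUFB4 lay below the olfactory receptor percentile, so their values were not shown to exceed background. NDUFC1, another membrane arm subunit, was 1 of the 3 members whose Δα-Cat arrays all lay above the α-Cat arrays: 6.19, 6.24 and 6.16 against 6.13, 6.08 and 6.08, a difference of 0.10 (SE 0.05, limma adjusted p = 0.64).

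Complex II, succinate dehydrogenase, links the citric acid cycle to the chain. SDHA, its flavoprotein, read 7.74, 7.71 and 7.70 in Δα-Cat and 7.80, 7.73 and 7.76 in α-Cat. SDHC, a membrane anchor, read 7.72, 7.84 and 7.61 in Δα-Cat and 7.77, 7.89 and 7.73 in α-Cat. SDHD, the other anchor (promoter above), read 7.37, 7.50 and 7.46 in Δα-Cat and 7.47, 7.36 and 7.32 in α-Cat. The groups overlapped for each of these, and the differences were -0.05, -0.07 and 0.06. Their 95% intervals together ran from -0.26 to 0.22.

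In complex III, which hands electrons from coenzyme Q to cytochrome c, the core proteins UQCRC2 and UQCRC1 had the most negative differences. UQCRC2 (chromosome 16) read 8.62, 8.73 and 8.50 in Δα-Cat and 9.07, 8.85 and 8.79 in α-Cat, a difference of -0.28 (SE 0.09, 95% interval -0.50 to -0.07, limma adjusted p = 0.367). UQCRC1 (chromosome 3, promoter above) read 8.55, 8.61 and 8.48 against 8.69, 8.82 and 8.69, a difference of -0.19 (SE 0.07, limma adjusted p = 0.405). Neither was called, but in both every Δα-Cat array was below every α-Cat array.

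The other 5 measured UQCR genes, small subunits around the core, lay between -0.06 (UQCRHL, a hinge protein-like gene) and 0.03 (UQCRB), with overlapping groups in all. UQCRB was below the olfactory receptor percentile. The test of whether the core proteins differ from these 5 was not made.

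Complex IV, cytochrome c oxidase, had a median difference of -0.01 over its 15 measured genes, of which 8 had a negative sign. This median lay between -0.03 and -0.00 when 1 array was left out, the most negative value being without Δα-Cat replicate 1. COX7A2L, which encodes a COX7A-related protein that joins complexes III and IV in supercomplexes (chromosome 2), read 6.77, 6.79 and 6.74 in Δα-Cat and 6.65, 6.44 and 6.49 in α-Cat. The Δα-Cat arrays all lay above the α-Cat arrays and were close together. Its means were 6.77 ± 0.02 and 6.53 ± 0.11 (SD, n = 3 each), a difference of 0.24 (SE 0.07, 95% interval 0.08 to 0.40), and it was not called (limma adjusted p = 0.289).

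COX7A2, the widely expressed relative of COX7A2L in the enzyme itself, read 6.66, 6.69 and 6.61 in Δα-Cat and 6.90, 6.83 and 6.68 in α-Cat, a difference of -0.15 (SE 0.07, limma adjusted p = 0.566). COX7A1, the heart and muscle form, differed by -0.01. The sign was thus not shared by the 3 genes of this family, and the contrast between them was not tested.

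None of the remaining isoform genes had an unadjusted p under 0.05. COX4I1, the common form of subunit 4, read 9.56, 9.67 and 9.56 in Δα-Cat and 9.64, 9.50 and 9.65 in α-Cat, a difference of 0.00 (SE 0.07). COX4I2, its alternative form, had a difference of 0.06 (SE 0.10). For subunit 6A, COX6A1 differed by 0.08 and the muscle form COX6A2 by -0.02, and COX6B1, of subunit 6B, differed by -0.14 (SE 0.10). COX7B differed by -0.11 and its testis form COX7B2 by 0.00. COX7B2 and COX8C, another testis form, had means of 2.56 and 2.20, below the olfactory receptor percentile, as did COX6C at 4.02.

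COX8A, the common form of subunit 8 (chromosome 11), had the largest spread between arrays of any member. It read 10.96, 10.39 and 10.06 in Δα-Cat and 10.59, 11.26 and 10.51 in α-Cat. The range within a group was 0.89 and 0.76, so the difference of -0.32 had an SE of 0.27 and a 95% interval from -0.96 to 0.32, and at this spread the arrays could not show whether it differed. ATP5F1D, the δ subunit of ATP synthase, had the next largest spread, with 9.84, 9.55 and 9.41 against 9.82, 9.97 and 9.47. In both genes the lowest value of each group was on the array numbered 3.

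The cluster of COXFA4, formerly NDUFA4 and now counted with complex IV, was not a member by its current symbol. It differed by -0.05, and its relative COXFA4L2, formerly NDUFA4L2, by 0.00.

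**Figure D3:**
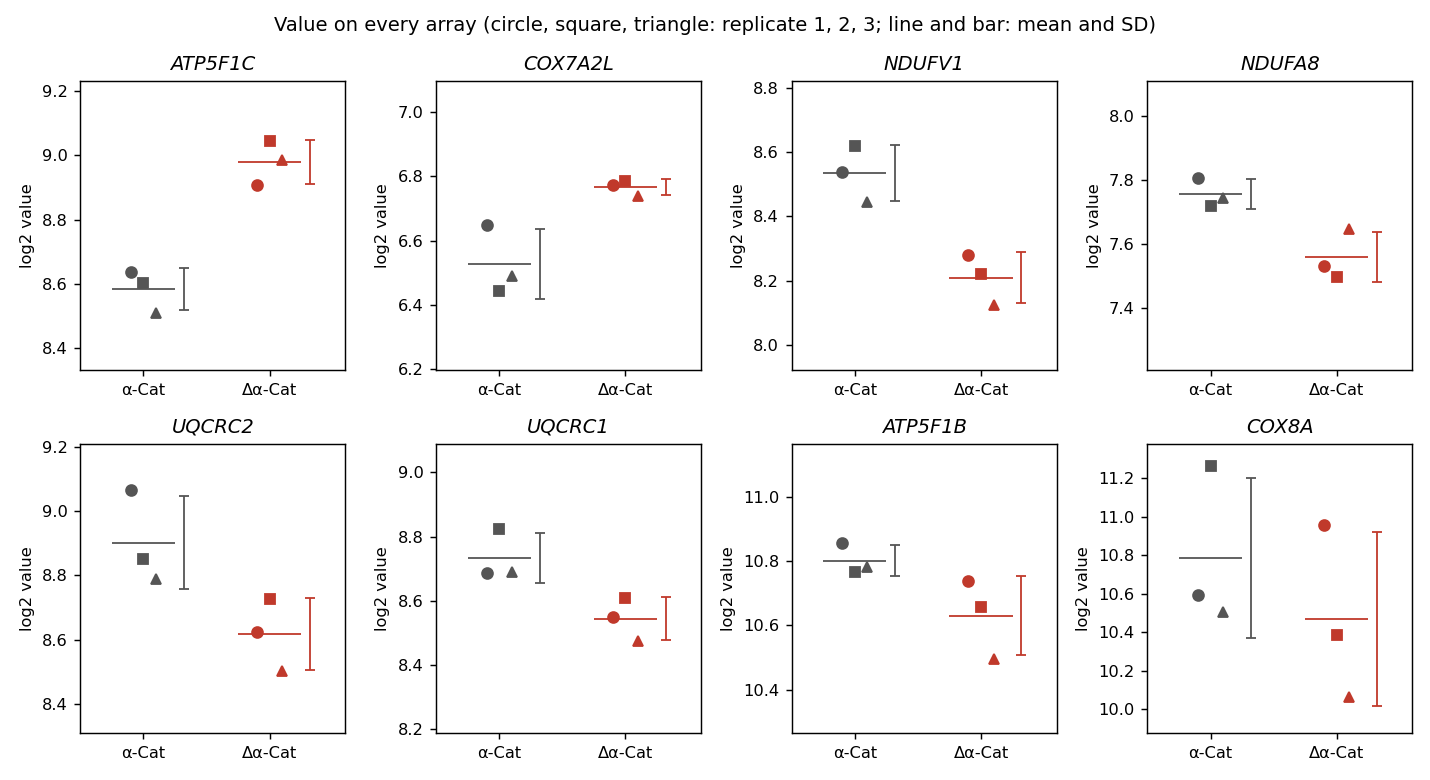
Log2 value (y axis) of 8 members on every array, with α-Cat in grey and Δα-Cat in red; the shape gives the replicate number, the horizontal line the mean and the bar beside it the SD over 3 arrays. The groups stand apart in all panels but COX8A, upward in ATP5F1C and COX7A2L and downward in NDUFV1, NDUFA8, UQCRC2, UQCRC1 and ATP5F1B.

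Complex V, ATP synthase, had a median difference of -0.10 over 18 genes, 14 of them with a negative sign, and it also held the member with the largest positive difference. The median was -0.06 without Δα-Cat replicate 3 and -0.07 without α-Cat replicate 1. ATP5F1C encodes the γ subunit, the central shaft that turns inside the catalytic head (chromosome 10, promoter above). It read 8.91, 9.05 and 8.99 in Δα-Cat and 8.64, 8.60 and 8.51 in α-Cat. The lowest Δα-Cat array was above the highest α-Cat array by more than the SD of either group. The means were 8.98 ± 0.07 and 8.58 ± 0.07 (SD, n = 3 each), a difference of 0.40 (SE 0.06, 95% interval 0.25 to 0.55), or 31.6% more on the linear scale.

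ATP5F1C did not pass over all clusters (limma adjusted p = 0.0736). It passed when only clusters with a single symbol were tested (adjusted p = 0.0186, where 1.64% of genes were called higher) and when only clusters above the olfactory receptor percentile were tested (adjusted p = 0.033, where 2.13% of genes were called, 1.20% higher and 0.933% lower). With the replicate block, the adjusted p was 0.126.

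The other subunits of the catalytic F1 part had negative differences. ATP5F1B, the catalytic β subunit (chromosome 12), read 10.74, 10.66 and 10.50 in Δα-Cat and 10.86, 10.77 and 10.78 in α-Cat, without overlap, a difference of -0.17 (SE 0.07, limma adjusted p = 0.527). ATP5F1A, the α subunit, differed by -0.17 (SE 0.08) with overlapping groups, ATP5F1D by -0.15 (SE 0.15) and ATP5F1E, the ε subunit, by -0.03. Whether ATP5F1C differs from these in its response was not tested.

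The c ring, the rotor in the membrane, is built from a subunit that ATP5MC1, ATP5MC2 and ATP5MC3 encode with different import signals. ATP5MC1 read 7.65, 7.44 and 7.46 in Δα-Cat and 7.81, 7.90 and 7.63 in α-Cat, a difference of -0.26 (SE 0.09, limma adjusted p = 0.4), and the groups overlapped. ATP5MC2 differed by 0.07 and ATP5MC3 by -0.05, so 1 of the 3 genes for this subunit had an unadjusted p under 0.05.

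In the peripheral stalk, which holds the head still, ATP5PB, ATP5PD, ATP5PF and ATP5PO all had a negative sign, from -0.12 (ATP5PF, whose groups did not overlap) to -0.02. The 5 small membrane subunit genes had a median of -0.17. ATP5MGL, a gene similar to that of subunit g, read 5.17, 5.56 and 5.33 in Δα-Cat and 5.76, 5.64 and 5.56 in α-Cat, a difference of -0.30 (SE 0.11, limma adjusted p = 0.418). ATP5ME, for subunit e, had a difference of -0.15 (SE 0.07) without overlap of the groups. ATP5IF1, the inhibitor that stops the enzyme from running backwards, differed by 0.06.

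Other genes of mitochondrial energy metabolism were taken from 11 lists holding 220 genes besides the members. Of these, 2 were called, 1 in each direction, a share of 0.909% against 0.626% of all genes. IDH2, the mitochondrial isocitrate dehydrogenase that makes NADPH, fell: it read 8.08, 7.99 and 7.78 in Δα-Cat and 8.75, 8.79 and 8.72 in α-Cat. All Δα-Cat arrays lay far below the α-Cat arrays, and the change was -0.81 (SE 0.08, limma adjusted p = 0.0216), or 1.75-fold lower. The call was lost without Δα-Cat replicate 2 (adjusted p = 0.119) and without α-Cat replicate 1, 2 or 3 (0.128, 0.103 and 0.111), while the difference in these fits lay between -0.83 and -0.79.

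MRPL45, a protein of the large mitochondrial ribosomal subunit, rose by 0.48 (SE 0.06, limma adjusted p = 0.0438). It read 8.28, 8.28 and 8.31 in Δα-Cat and 7.89, 7.71 and 7.82 in α-Cat. Its call was lost with the replicate block (adjusted p = 0.0784), after median centring (0.058) and without any 1 of the 6 arrays (0.103 to 0.183), while the difference stayed at 0.48 in the first 2 of these and lay between 0.43 and 0.52 without 1 array.

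The sign was negative in 173 of the 220 genes, with a median of -0.07. In the citric acid cycle list 17 of 19 genes had a negative sign (median -0.12). The 74 mitochondrial ribosomal protein genes had a median of -0.07, with 62 of negative sign. The Δα-Cat arrays lay wholly below the α-Cat arrays in 29 of them, 39.2%. This compares with 10.0% of all genes and 12.3% of genes above the olfactory receptor percentile. For complex I assembly factors the median was -0.08 over 19 genes, and ACAD9, an assembly factor related to acyl-CoA dehydrogenases, differed by -0.32 (limma adjusted p = 0.12). Among 23 complex IV assembly genes the median was -0.09. LRPPRC, which stabilises mitochondrial messenger RNAs, differed by -0.55 (limma adjusted p = 0.0802). It passed when only clusters with a single symbol were tested (limma adjusted p = 0.0234, where 1.30% of genes were called lower). It also passed with only clusters above the olfactory receptor percentile (limma adjusted p = 0.0387, where 0.933% were called lower).

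Lists for electron carriers, cytochrome c1 and related enzymes (8 genes, median -0.09) and for mitochondrial import (27 genes, -0.09) also had negative medians. So did those for biogenesis and expression of mitochondrial DNA (21 genes, -0.05) and complex II assembly (4 genes, -0.02). The first of these lists held CYCS, CYC1, ETFA, ETFB, ETFDH, DHODH, SQOR and GPD2. Cytochrome c1 (CYC1), a complex III subunit outside the symbols chosen, read 8.49, 8.46 and 8.38 in Δα-Cat and 8.76, 8.84 and 8.62 in α-Cat, a difference of -0.30 (SE 0.07, limma adjusted p = 0.217). HSPE1, a mitochondrial chaperonin of the import list, differed by -0.33, and the small gene SDHAF3, of complex II assembly, by -0.34 at a mean of 3.20, below the olfactory receptor percentile. MTERF4, which acts on mitochondrial ribosomes, differed by 0.33 (limma adjusted p = 0.162).

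The lists for complex III assembly (9 genes, median 0.02), complex V assembly (4 genes, 0.03, ATP5IF1 included) and coenzyme Q synthesis (13 genes, 0.00) did not have a negative median. BCS1L, ATPAF1 and PDSS1 had the smallest p in these, with differences of -0.11, 0.06 and -0.32.

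**Figure D4:**
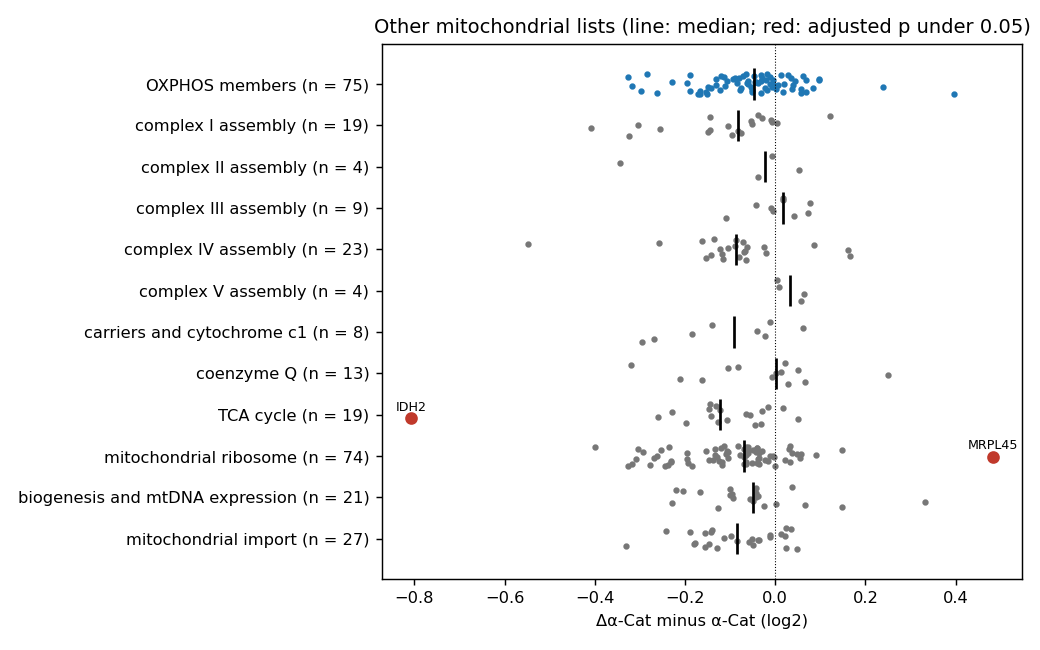
The log2 difference, Δα-Cat minus α-Cat (x axis), of every gene of the 75 members (blue) and of the 11 other mitochondrial lists (grey), 1 row a list on the y axis; black lines are medians and red points are the called genes, IDH2 and MRPL45. Medians of 8 of the 11 lists lie below 0, the lowest being the TCA cycle at -0.12.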

How the data were processed

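The deposited table holds 1 score per transcript cluster and array; the submitters' processing notes name Affymetrix Expression Console and RMA, and the authors' version is not given in the sources used here. Rows with decimal points lay between 1.26 and 14.24 and were read as log2 values. Of 70513 deposited rows, 4987 held values without a decimal point and were left out, which leaves 65526. A second deposited table was not used, since none of its 6 sample columns could be tied to a label.

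Symbols came from the platform annotation and names from RefSeq (GRCh38.p14). A gene with several clusters (NDUFB2 among the members) was represented by the one with the highest mean. Differences were fitted with limma 3.58.1 in R 4.3.3 (lmFit, eBayes, no covariate) and adjusted by Benjamini-Hochberg over all 65526 clusters; the fit was tested on simulated data. Python 3.11.15, numpy 2.4.6, pandas 2.3.3 and matplotlib 3.10.9 made the tables and plots.

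Residuals from the group means correlated at 0.219, 0.214 and 0.128 for same-numbered arrays of the groups, and at -0.163 to -0.036 for differently numbered arrays. Because group means were subtracted, positive values for same numbers bring negative values for different numbers by arithmetic. The negative values are thus no separate support for pairing. From the positive ones, the numbers may pair the arrays, although the labels do not say so. The fit with a replicate block was an alternative. The others were cyclic loess, median centring, trended and robust eBayes, fewer clusters tested, means over a gene's clusters, and leaving out each array.

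Members and lists were chosen with earlier results of these data known. Genes named were called members, per complex the 3 with the smallest p and the highest mean, isoform sets, SDH genes, and from each list the called genes or the smallest p; other members were named after their values were seen. Some genes of the lists, and SDHB, were not analysed here.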

Additional observations from a re-analysis of the deposited data

How the results depend on the processing

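The number of array replicates limits precision, and signal over background could not be tested. The median difference of the 75 members stayed negative in every alternative run, between -0.06 and -0.02, and so did that of each complex. Without 1 array the medians lay between -0.06 and -0.02 for complex I, -0.06 and -0.02 for II, -0.08 and -0.01 for III, -0.03 and -0.00 for IV and -0.12 and -0.06 for V, and the order of the complexes changed. Members called went from 0 to 2 (ATP5F1C higher, NDUFV1 lower, 1 each) with single-symbol clusters only, 2.67% against 2.94% of all genes, and to 1 (ATP5F1C, higher) with clusters above the olfactory receptor percentile only, 1.45% of the 69 members tested against 2.13%; fewer clusters were tested in both. They remained 0 in the other 11 alternatives, the replicate block and each left-out array included. Called genes of the other lists went from 2 to 10 (1 higher, 9 lower) and to 4 (1 higher, 3 lower) in the same 2 fits. The lower ones were IDH2, LRPPRC and MRPS31 in both, with ACAD9, HSPE1, MRPL1, MRPL12, MRPL16 and NDUFAF2 in the first only. Lower calls were 4.09% of these genes against 1.30% of all in the first and 1.44% against 0.933% in the second, and higher calls 0.455% against 1.64% and 0.481% against 1.20%. With the replicate block and with median centring they went to 1, with 0 higher; the cause was not tested. Without 1 array they numbered 0 to 1, of which 0 higher and 0 to 1 lower. Among the 40 genes named by rule (CTNNA1 included), the sign changed in 12 values, over 6 genes whose difference was 0.06 or less in size. The other genes named in the text were not checked in this way.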
